A study of Homo sapiens with 9 samples.

Results

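The genes described here are those of the human mitochondrial genome, chosen as the entries whose Ensembl identifier has a GENCODE 29 symbol starting with MT-. There were 37 such genes among 58381 Ensembl identifiers, and 15 of them were among the 13777 genes tested. They are 2 ribosomal RNAs (rRNAs), 13 messenger RNAs (mRNAs) and 22 transfer RNAs (tRNAs). By convention 28 are counted as heavy-strand genes and 9 as light-strand genes. Of the light-strand genes, 8 are tRNAs and the other is MT-ND6. Expression was measured by RNA sequencing of HK1, an established human nasopharyngeal carcinoma line, in 3 groups of 3 libraries. The groups were cells given an siRNA against E2F1, cells given an siRNA against E2F3 and cells given a non-targeting control siRNA, each at 100 nM for 48 h. E2F1 and E2F3 are transcription factors best known for driving entry into S phase. All results are from this 1 cell line. Nothing in the labels tells whether a group's 3 libraries were grown as separate cultures. P-values therefore measure only the spread between these libraries, which may be technical.

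The mitochondrial genome is a small circle kept in many copies per cell. It is read by its own RNA polymerase, POLRMT, which works with the factors TFAM and TFB2M and makes long precursor RNAs from each strand. tRNAs lie between most of the rRNA and mRNA genes and are cut out of these precursors, which frees the other RNAs. The rRNAs build the mitochondrial ribosome, and the mRNAs encode subunits of respiratory complexes I, III, IV and V. Because the heavy-strand genes share their precursors, differences between their mature levels can also reflect processing and stability of each RNA.

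Several of these genes overlap or are very short, which bears on how their levels can be read. The pair MT-ATP8 (chrM:8366-8572) and MT-ATP6 (chrM:8527-9207), subunits of ATP synthase, are carried on 1 mRNA and share 46 bases. The pair MT-ND4L (chrM:10470-10766) and MT-ND4 (chrM:10760-12137), subunits of complex I, are also carried together and share 7 bases. Their overlaps are shown with the shared bases in capitals, 5′ to 3′, from GENCODE 29 transcript sequences on GRCh38. All 4 lie on the annotated plus strand.
MT-ATP8, whole, chrM:8366-8572: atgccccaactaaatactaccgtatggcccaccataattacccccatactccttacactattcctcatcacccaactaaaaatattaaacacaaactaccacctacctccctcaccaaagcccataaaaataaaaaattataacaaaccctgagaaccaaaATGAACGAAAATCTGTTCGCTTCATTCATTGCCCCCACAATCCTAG
MT-ATP6, first 80 bases, chrM:8527-8606: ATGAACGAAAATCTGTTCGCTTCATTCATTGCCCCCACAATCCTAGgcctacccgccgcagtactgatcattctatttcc
MT-ND4L, last 60 bases, chrM:10707-10766: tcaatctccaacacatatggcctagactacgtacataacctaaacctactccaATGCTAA
MT-ND4, first 80 bases, chrM:10760-10839: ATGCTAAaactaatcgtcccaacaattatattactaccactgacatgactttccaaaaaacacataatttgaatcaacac
The bases in capitals cannot be assigned to one gene of a pair by sequence. The sources used here do not give how the authors' counting treated them.

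The 22 tRNA genes, 59 to 75 bases long, were listed at 0 FPKM in all 9 libraries. FPKM are fragments scaled to the length of the transcript and to the fragments of the library. The shortest and the longest tRNA gene show how small these genes are, both on the plus strand of GRCh38 and written in lower case with no part marked.
MT-TS2, a serine tRNA, chrM:12207-12265: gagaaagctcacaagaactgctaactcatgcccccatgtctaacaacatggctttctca
MT-TL1, a leucine tRNA, chrM:3230-3304: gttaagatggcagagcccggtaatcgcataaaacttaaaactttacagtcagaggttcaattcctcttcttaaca
The zeros were not particular to mitochondrial tRNAs, since none of the 6637 genes of up to 151 bases had a value above 0 in any library. Among genes of 150 to 199 bases 7.46% had one, and among genes of 400 to 499 bases 30.3%. The shortest gene with a value had 152 bases. The tRNAs, heavy-strand and light-strand alike, are therefore listed at 0 for their length class as a whole, and nothing can be said of their levels.

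Depth was read from the steps in which low FPKM values fall, and lay between 24700000 and 34700000 fragments per library (3 digits). Controls spanned that whole range, and both knockdowns lay inside it. The steps were whole only when 235 to 270 bases were first taken off each gene's length. FPKM of genes near that length are thus divided by a small number, and how genes shorter than it were scaled was not determined. Among the 12 rRNA and mRNA genes of at least 500 bases, the fragments behind a value ranged from 6720 for MT-ND6 in the shallowest case to 461000 for MT-CO1 in the deepest (3 digits). Each siRNA lowered its target: E2F1 had 7.17, 7.95 and 7.33 FPKM after E2F1 siRNA against 19.85, 19.53 and 20.2 in controls, and E2F3 had 12.61, 10.52 and 11.02 FPKM after E2F3 siRNA against 24.74, 27.17 and 24.42 in controls. All 8 squamous epithelial markers were expressed, and their summed FPKM was 1296 to 1350 after E2F1 siRNA, 1134 to 1213 after E2F3 siRNA and 1784 to 1842 in controls. Of the markers of other cells, 1 of 4 for leukocytes (CD68), 1 of 4 for fibroblasts (COL1A1) and 0 of 3 for endothelium reached 1 FPKM in 3 libraries. Summed leukocyte markers were 17.2 to 18.9 FPKM after E2F1 siRNA, 16.9 to 19.8 after E2F3 siRNA and 17.3 to 19.7 in controls, and fibroblast markers 16.9 to 19.9 FPKM after E2F1 siRNA, 13.1 to 15.2 after E2F3 siRNA and 13.1 to 14.2 in controls. Endothelial markers summed to 0.69 to 1.22 FPKM after E2F1 siRNA, 0.29 to 0.67 after E2F3 siRNA and 1.04 to 1.87 in controls. Both listed erythroid genes, the haemoglobin genes HBB and HBA1, reached 1 FPKM in 3 libraries. They summed to 8.72 to 12.9 FPKM after E2F1 siRNA, 7.73 to 11.1 after E2F3 siRNA and 10.8 to 38.4 in controls. The highest sum was that of control replicate 3, with 19.9 FPKM for HBB and 18.5 for HBA1. No listed marker was at 0 in every library. The part of these markers in the mitochondrial values was not tested.

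The mRNAs of cytochrome c oxidase were the most abundant mitochondrial RNAs among genes long enough to compare. Means over 9 libraries were 11880.5 FPKM for MT-CO3, 11514 for MT-CO2 and 9623 for MT-CO1, which encode the catalytic core of complex IV. MT-ATP6 followed at 7697 FPKM, MT-ND4 at 6867, MT-ND2 at 3438, MT-CYB, the complex III subunit, at 2447 and MT-ND1 at 1738. The large rRNA MT-RNR2 had 1666 FPKM, close to MT-ND1, and MT-ND5 had 1272. The light-strand mRNA MT-ND6 had 1082 FPKM, and the small rRNA MT-RNR1 was lowest at 643. The order of neighbours was not the same in every group. Within each library, MT-CO3 was above MT-CO2 after E2F1 siRNA and after E2F3 siRNA, by little after E2F3 siRNA, and below it in all controls. MT-RNR2 was likewise below MT-ND1 in all libraries given E2F1 siRNA and above it in all others. Of the short genes, MT-ATP8 was listed at 48939 FPKM, MT-ND4L at 15306 and MT-ND3 at 6378, on a scale that is not comparable with the longer genes. MT-ATP8 exceeded MT-ATP6, its partner on the same mRNA, by 5.75 to 7.11 times in each library, and MT-ND4L exceeded MT-ND4 by 2.11 to 2.33 times.

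**Figure D1:**
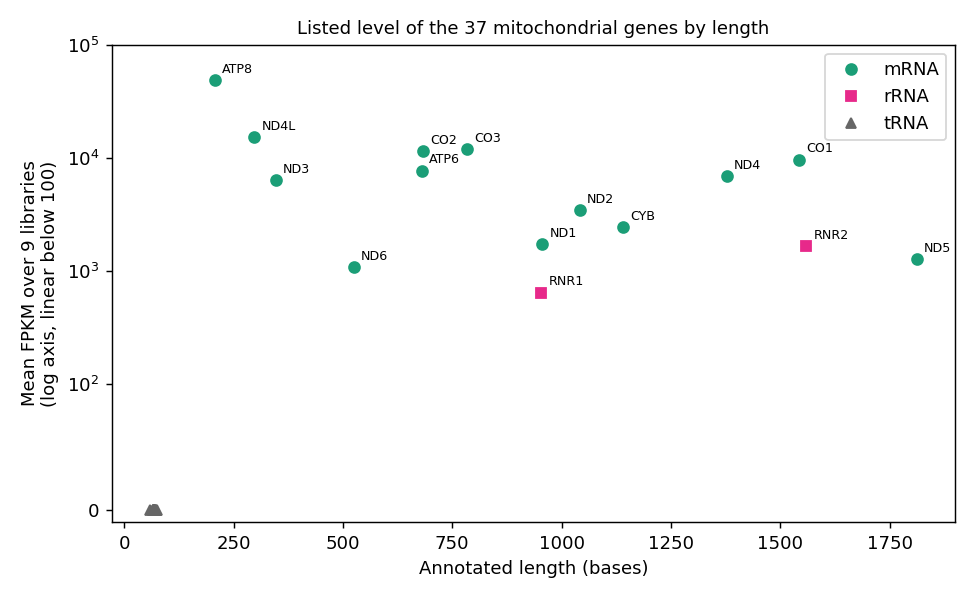
Mean FPKM over the 9 libraries (vertical, logarithmic above 100) against annotated length in bases (horizontal) for the 37 mitochondrial genes, by RNA class. The 22 tRNAs sit at 0, MT-ATP8 is the highest point at 207 bases, and MT-RNR1 is the lowest point above 0 at 643 FPKM.

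After E2F1 siRNA mitochondrial transcripts moved in both directions, with the large rRNA and the complex IV mRNAs lower and 4 other mRNAs slightly higher. Of the 15 genes, 7 were lower and 4 higher than in controls (limma, adjusted p under 0.05), which is 73.3% of them. Over all 13777 genes 37.8% were called, 17.3% lower and 20.5% higher, and 46.9% of the genes with at least 5 FPKM were called. The 3 libraries did not overlap with the controls for 12 of the 15 genes, 8 lower and 4 higher, against 50.3% of all genes (22.6% lower, 27.7% higher). The median log2 fold change of the 15 genes was -0.17, against 0.03 over all genes, on the log2(FPKM + 1) scale used throughout. In bulk RNA, fewer mitochondrial genomes per cell and less RNA per genome cannot be told apart. FPKM are scaled to the fragments of the library, so more RNA from other genes cannot be told apart either.

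MT-RNR2 (chrM:1671-3229), the RNA of the large ribosomal subunit, fell most. It had 1309.8, 1260.3 and 1235 FPKM after E2F1 siRNA, against 1883, 1879 and 1822 FPKM in controls. All 3 E2F1 siRNA libraries lay well below all 3 controls. The mean fell by 31.9% (log2 -0.55, SE 0.03; limma adjusted p = 2.2e-06), and the call held in all 20 alternative settings, between -0.59 and -0.39. MT-RNR1 (chrM:648-1601), the RNA of the small ribosomal subunit, had 687, 537 and 501 FPKM after E2F1 siRNA, against 608, 669 and 715 FPKM in controls. E2F1 siRNA replicate 1 lay inside the control range and the other two below it. The difference did not pass the test (log2 -0.22, SE 0.11; limma adjusted p = 0.14), but did without that replicate (log2 -0.35; limma adjusted p = 0.0065). The ratio of MT-RNR2 to MT-RNR1 was 1.91, 2.35 and 2.47 after E2F1 siRNA and 3.10, 2.81 and 2.55 in controls. These ranges were apart by a small margin.

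The 3 mRNAs of complex IV, the last enzyme of the respiratory chain, all fell after E2F1 siRNA. MT-CO2 (chrM:7586-8269) had 9686, 9113 and 8843 FPKM after E2F1 siRNA, against 12547, 12269 and 12134 FPKM in controls. The mean fell by 25.2% (log2 -0.42, SE 0.04; limma adjusted p = 3.6e-05), the largest fall among the mRNAs. MT-CO1 (chrM:5904-7445) had 8924, 8476 and 8486 FPKM after E2F1 siRNA, against 10379.6, 10309 and 10353 FPKM in controls (log2 -0.26, SE 0.03; limma adjusted p = 2.0e-04). MT-CO3 (chrM:9207-9990) had 10975, 10721 and 10194 FPKM after E2F1 siRNA, against 12112, 11932 and 11737 FPKM in controls (log2 -0.17, SE 0.04; limma adjusted p = 0.0060). None of the E2F1 siRNA libraries reached any control in these 3 genes. When levels were scaled to the sum of the 13 mitochondrial mRNAs, MT-CO2 remained lower (log2 -0.26 or below in every alternative), whereas MT-CO1 (log2 -0.10) and MT-CO3 (log2 -0.01) lost the call. On the geometric mean of the same mRNAs MT-CO1 kept its call and MT-CO3 (log2 -0.05) did not.

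Complex I, which takes electrons from NADH, has 7 of its subunits encoded in mitochondria, and their mRNAs split. MT-ND4 had 6227, 5887 and 5809 FPKM after E2F1 siRNA, against 7575, 7549.7 and 7614 FPKM in controls (log2 -0.34, SE 0.03; limma adjusted p = 4.3e-05). MT-ND4L, on the same mRNA, had 14449, 13355 and 12699.6 FPKM after E2F1 siRNA, against 16124, 17259.9 and 16059 FPKM in controls (log2 -0.29, SE 0.05; limma adjusted p = 0.0016). The groups did not overlap in either gene of this pair. MT-ND5 (chrM:12337-14148) was lower too, with 1187, 1163 and 1061 FPKM after E2F1 siRNA against 1235, 1320.0 and 1244 FPKM in controls (log2 -0.16, SE 0.05; limma adjusted p = 0.031). This call was the weakest of the falls: it was lost when any of control replicate 2 (log2 -0.13), control replicate 3 (log2 -0.17) and E2F1 siRNA replicate 3 (log2 -0.11) was left out, and scaled to the mitochondrial mRNAs the value was 0.01.

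The complex I mRNAs MT-ND1, MT-ND2 and MT-ND3 and the complex III mRNA MT-CYB were higher after E2F1 siRNA, by small amounts. MT-ND1 (chrM:3307-4262) had 1737, 1821 and 1781 FPKM after E2F1 siRNA, against 1593, 1646 and 1703 FPKM in controls (log2 0.11, SE 0.03; limma adjusted p = 0.028). MT-ND2 (chrM:4470-5511) had 3763, 3594 and 3609.6 FPKM after E2F1 siRNA, against 3208, 3415 and 3416 FPKM in controls (log2 0.13, SE 0.04; limma adjusted p = 0.019). In both genes every E2F1 siRNA library was above every control. MT-ND3 (chrM:10059-10404) had 6898, 6833 and 6041 FPKM after E2F1 siRNA, against 5753, 6000.1 and 5654 FPKM in controls (log2 0.18, SE 0.05; limma adjusted p = 0.022). E2F1 siRNA replicate 3 was only just above the highest control. MT-CYB (chrM:14747-15887) had 2613, 2600.2 and 2512 FPKM after E2F1 siRNA, against 2311, 2429.8 and 2391 FPKM in controls (log2 0.12, SE 0.04; limma adjusted p = 0.030; 0.051 with the replicate number as a block). All 4 rises rested on single libraries, and with RLE or upper-quartile scaling of the libraries MT-ND3 alone of the 4 was called. Without control replicate 1 none of them was called (log2 0.09 to 0.18). Without E2F1 siRNA replicate 1 the calls of MT-ND2 (log2 0.11), MT-ND3 (log2 0.15) and MT-CYB (log2 0.10) were lost, and without E2F1 siRNA replicate 2 those of MT-ND1 (log2 0.09), MT-ND3 (log2 0.15) and MT-CYB (log2 0.11). The call of MT-ND1 was also lost without control replicate 2 and without E2F1 siRNA replicate 3 (log2 0.11 each), and MT-ND3 (log2 0.16) and MT-CYB (log2 0.12) without control replicate 3.

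The remaining 3 mRNAs did not pass the test after E2F1 siRNA. MT-ATP8 had 48143, 44364 and 42087 FPKM after E2F1 siRNA, against 46064, 52489 and 47928 FPKM in controls (log2 -0.12; limma adjusted p = 0.21). MT-ATP6 had 7758, 7228 and 7317 FPKM after E2F1 siRNA, against 7579, 7605 and 7757 FPKM in controls (log2 -0.04; limma adjusted p = 0.41). Both genes of the ATP synthase mRNA overlapped between the groups. The light-strand mRNA MT-ND6 (chrM:14149-14673) had 1004, 1006 and 785 FPKM after E2F1 siRNA, against 1014, 1237 and 1042 FPKM in controls (log2 -0.24, SE 0.11; limma adjusted p = 0.10). All 3 E2F1 siRNA libraries lay below the controls, replicate 3 far below and the other two only just below the lowest control. The sources used here do not give whether the libraries kept the strand, and MT-ND6 reads therefore cannot be told apart from those of the heavy-strand precursor that runs across the same bases.

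**Figure D2:**
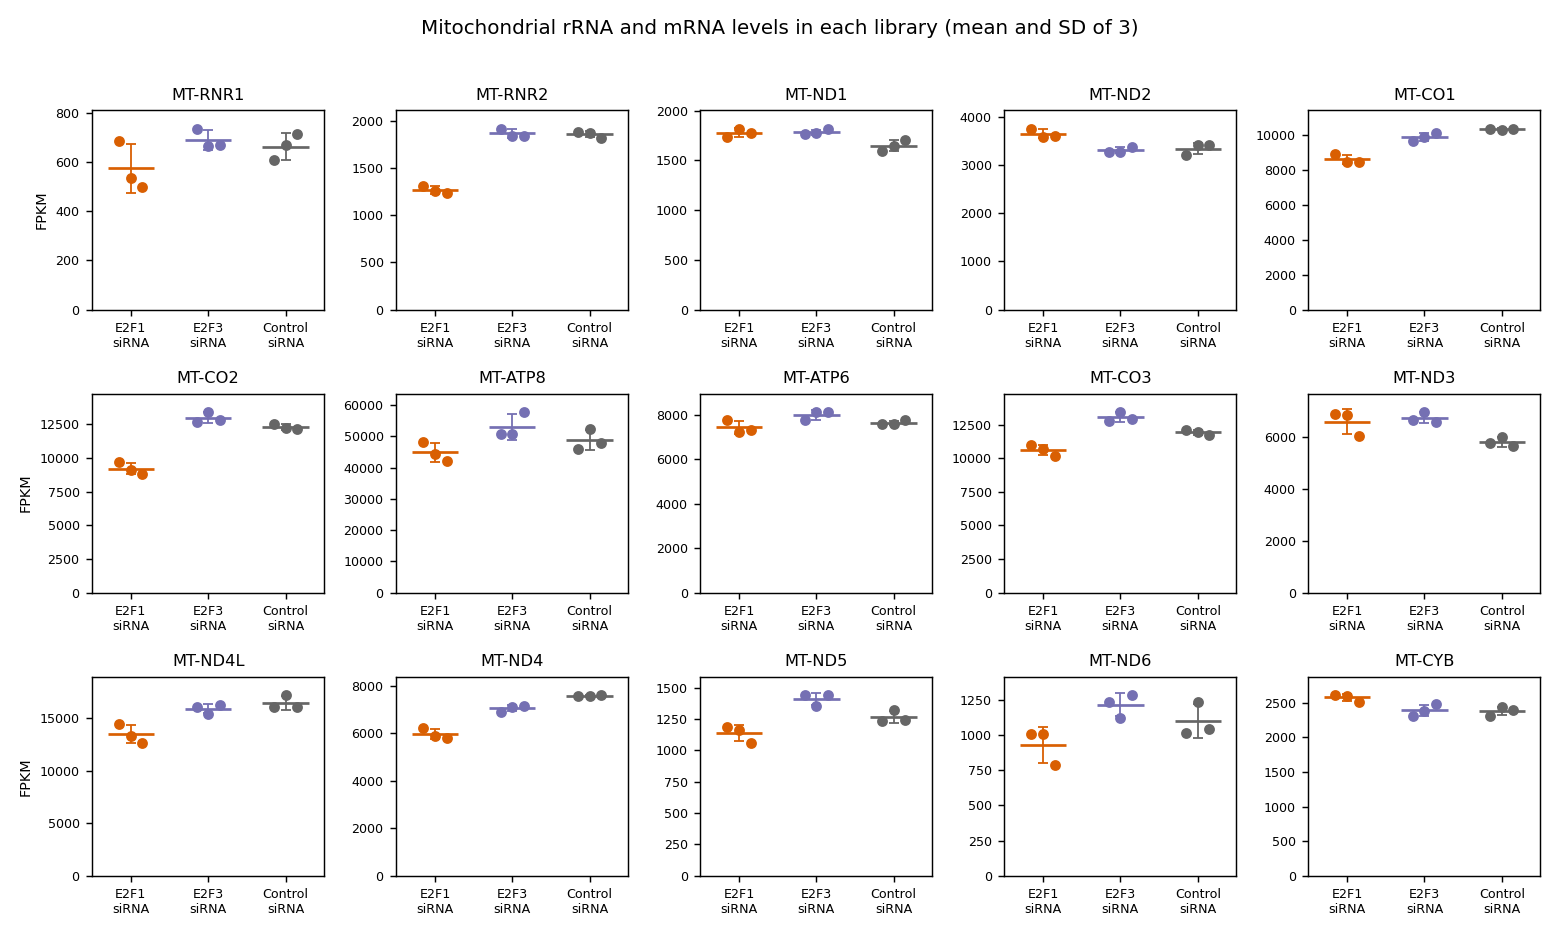
FPKM of the 15 mitochondrial rRNA and mRNA genes in each library (vertical, from 0) for E2F1 siRNA, E2F3 siRNA and control siRNA (horizontal), with points for libraries and the mean and SD of 3. MT-RNR2 lies near 1268 FPKM after E2F1 siRNA, against 1870.0 after E2F3 siRNA and 1861 in controls.

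The 4 mRNAs that rose after E2F1 siRNA all end in an incomplete stop codon, as do 2 that fell. In 6 of the 13 mRNAs the annotated gene stops 1 or 2 bases into the stop codon, which is completed when the mRNA is polyadenylated, and in 7 the last codon is whole. The last 27 bases of the mRNAs called after E2F1 siRNA, apart from MT-ND4L shown above, are given 5′ to 3′ on the plus strand of GRCh38 from GENCODE 29. The bases past the last whole codon, or else the last codon, are in capitals.
MT-ND1, higher, chrM:4236-4262: aatctccagcattccccctcaaaccTA
MT-ND2, higher, chrM:5485-5511: tctccccttttatactaataatcttaT
MT-ND3, higher, chrM:10378-10404: tacaaaaaggattagactgaaccgaaT
MT-CYB, higher, chrM:15861-15887: ttgaaaacaaaatactcaaatgggccT
MT-CO3, lower, chrM:9964-9990: atgtctccatctattgatgagggtctT
MT-ND4, lower, chrM:12111-12137: ccgacatcattaccgggttttcctctT
MT-CO1, lower, chrM:7419-7445: gaagaacccgtatacataaaatctAGA
MT-CO2, lower, chrM:8243-8269: gaaatagggcccgtatttaccctaTAG
MT-ND5, lower, chrM:14122-14148: atcctaaccctactcctaatcacaTAA
Of the 6 mRNAs with an incomplete stop codon, 4 were higher and 2 lower after E2F1 siRNA, with a median log2 fold change of 0.11. Of the 7 with a whole last codon, 4 were lower and 3 were not called, with a median of -0.24. After E2F3 siRNA against controls the medians were 0.06 and 0.08. Of the 6, 3 were higher and 1 lower, and of the 7, 1 was higher and 6 were not called. Between the knockdowns the medians were 0.02 and 0.24. There 2 of the 6 were higher and 2 lower after E2F3 siRNA, and all 7 were higher. The division by type of end was made with the values known and is a description of 13 genes that share precursors, with no test. Across the 15 genes Spearman's rho of the log2 fold change after E2F1 siRNA was -0.19 with length and -0.03 with GC content. It was 0.12 with the position of the start and -0.10 with the mean level, likewise as descriptions. For E2F3 siRNA against controls the values were -0.35, -0.15, 0.23 and -0.175 in the same order.

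After E2F3 siRNA the mitochondrial transcripts differed little from controls. Of the 15 genes, 4 were higher and 1 lower (limma, adjusted p under 0.05), or 33.3%, close to the 37.6% of all genes that were called (21.1% higher, 16.4% lower). Of the genes with at least 5 FPKM, 44.7% were called. The groups did not overlap for 8 genes, 6 higher and 2 lower, against 49.5% of all genes (28.6% higher, 21% lower), and the median log2 fold change was 0.07, against 0.04 over all genes. The E2F3 siRNA and E2F1 siRNA libraries were compared with the same 3 control libraries, so the values of the 2 comparisons are not independent.

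Neither rRNA passed the test after E2F3 siRNA. MT-RNR2 had 1922, 1846 and 1842 FPKM after E2F3 siRNA, against 1883, 1879 and 1822 FPKM in controls (log2 0.01, SE 0.03; limma adjusted p = 0.89), and the groups overlapped. MT-RNR1 had 738, 666 and 669.7 FPKM after E2F3 siRNA, against the control values given above (log2 0.06, SE 0.11; limma adjusted p = 0.69). The groups overlapped here as well.

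Complex I mRNAs made up 3 of the 4 rises after E2F3 siRNA. MT-ND3 rose most, with 6669, 6975 and 6579 FPKM after E2F3 siRNA against 5753, 6000.1 and 5654 FPKM in controls (log2 0.22, SE 0.05; limma adjusted p = 0.0098). It kept its call whichever library was left out, and alone of the 4 rises also with RLE scaling. Like the other rises, MT-ND3 lost its call when scaled to the sum of the 13 mitochondrial mRNAs (log2 0.15; limma adjusted p = 0.062). The same held without a filter on low values (limma adjusted p = 0.098). MT-ND5 had 1443, 1356 and 1437 FPKM after E2F3 siRNA, against 1235, 1320.0 and 1244 FPKM in controls (log2 0.16, SE 0.05; limma adjusted p = 0.030). MT-ND1 had 1768, 1775 and 1815 FPKM after E2F3 siRNA, against 1593, 1646 and 1703 FPKM in controls (log2 0.12, SE 0.03; limma adjusted p = 0.024). No E2F3 siRNA library fell within the control range for these 3 genes. The complex IV mRNA MT-CO3 had 12815, 13475 and 12962 FPKM after E2F3 siRNA, against 12112, 11932 and 11737 FPKM in controls (log2 0.13, SE 0.04; limma adjusted p = 0.019). MT-ND4 was the only fall, with 6899, 7083 and 7158 FPKM after E2F3 siRNA against 7575, 7549.7 and 7614 FPKM in controls (log2 -0.11, SE 0.03; limma adjusted p = 0.036). Its groups did not overlap, yet the call was lost when any 1 of the 6 libraries was left out (log2 -0.12 to -0.09) and with the replicate number as a block (log2 -0.11; limma adjusted p = 0.071). MT-ND5 lost its call without control replicate 1 or 3 or E2F3 siRNA replicate 1 or 3 (log2 0.14 in each case). MT-ND1 lost it without control replicate 1 (log2 0.09), control replicate 2 (log2 0.12) or E2F3 siRNA replicate 3 (log2 0.11), and MT-CO3 without control replicate 2 (log2 0.13), control replicate 3 (log2 0.12) or E2F3 siRNA replicate 2 (log2 0.11).

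The other mRNAs did not pass the test after E2F3 siRNA. Their log2 fold changes ran from -0.06 for MT-CO1 to 0.15 for MT-ND6. MT-CO1 had 9653, 9914 and 10113 FPKM after E2F3 siRNA, against 10379.6, 10309 and 10353 FPKM in controls (limma adjusted p = 0.15), and MT-CO2 had 12717, 13452 and 12862 FPKM after E2F3 siRNA, against 12547, 12269 and 12134 FPKM in controls (log2 0.08; limma adjusted p = 0.16). Neither pair of groups overlapped, MT-CO1 being below and MT-CO2 above all controls, and with RLE scaling MT-CO1 was called lower (log2 -0.11). MT-ND6 had 1237, 1124 and 1286 FPKM after E2F3 siRNA, against 1014, 1237 and 1042 FPKM in controls (SE 0.11; limma adjusted p = 0.30). MT-ND2 (log2 -0.01) and MT-CYB (log2 0.01), both higher after E2F1 siRNA, overlapped with controls here.

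**Figure D3:**
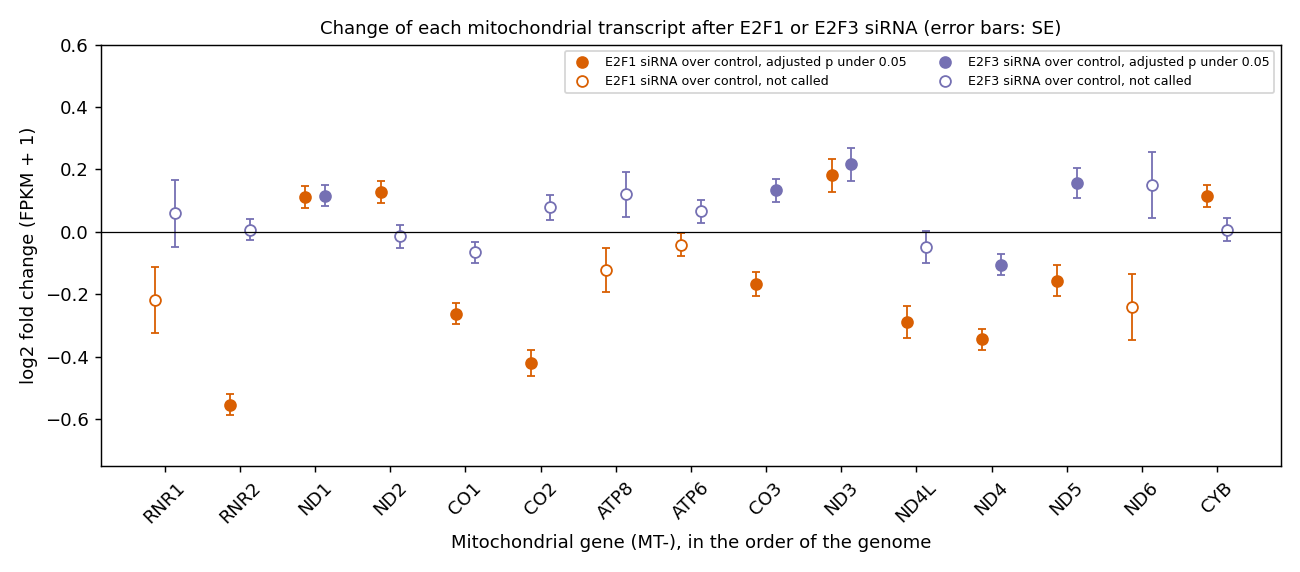
Log2 fold change of FPKM + 1 (vertical, with SE) of the 15 mitochondrial rRNA and mRNA genes in the order of the genome (horizontal), for E2F1 siRNA over control and E2F3 siRNA over control; filled points have an adjusted p under 0.05. MT-RNR2 and MT-CO2 lie lowest after E2F1 siRNA at -0.55 and -0.42, and E2F3 siRNA points lie between -0.11 and 0.22.

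Set side by side, 5 genes were called in both knockdowns against the shared controls. MT-ND1 and MT-ND3 were higher in both, MT-ND4 was lower in both, and MT-CO3 and MT-ND5 were lower after E2F1 siRNA and higher after E2F3 siRNA. Another 4 genes, MT-RNR1, MT-ATP8, MT-ATP6 and MT-ND6, were called in neither. Of all genes 37.8% were called after E2F1 siRNA and 37.6% after E2F3 siRNA. The share of all genes called in both or in neither was not computed, so whether these counts are unusual cannot be told.

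Compared directly, cells given E2F3 siRNA had more of most mitochondrial transcripts than cells given E2F1 siRNA. Of the 15 genes, 10 were higher and 2 lower (limma, adjusted p under 0.05), or 80%, against 45.5% of all genes (23.5% higher, 22% lower). Of the genes with at least 5 FPKM, 53% were called (25.3% higher, 27.7% lower). The groups did not overlap for 11 genes, 9 higher and 2 lower, against 53.8% of all genes (27.9% higher, 25.9% lower), and the median log2 difference was 0.24, against 0.02 over all genes. MT-RNR2 differed most (log2 0.56, SE 0.03; limma adjusted p = 1.3e-06), with 1842 FPKM or more in every E2F3 siRNA library and 1309.8 FPKM or less in every E2F1 siRNA library. MT-CO2 followed (log2 0.50, SE 0.04; limma adjusted p = 9.1e-06), then MT-ND6 (log2 0.39, SE 0.11; limma adjusted p = 0.013). MT-ND6 had 1237, 1124 and 1286 FPKM after E2F3 siRNA and 1004, 1006 and 785 FPKM after E2F1 siRNA, and neither group passed the test against controls. Its call was lost without a filter on low values (limma adjusted p = 0.055) and with scaling to the sum or the geometric mean of the mitochondrial mRNAs (log2 0.16 and 0.21), and reads of the heavy-strand precursor cannot be told apart from it. MT-ND5 (log2 0.31), MT-CO3 (log2 0.30), MT-ND4L (log2 0.24), MT-ND4 (log2 0.24) and MT-CO1 (log2 0.20) were also higher, with SEs of 0.03 to 0.05 and limma adjusted p-values of 1.5e-04 to 0.0038.

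The 2 genes of the ATP synthase mRNA were higher after E2F3 siRNA than after E2F1 siRNA by calls that single libraries decided. MT-ATP8 (log2 0.24; limma adjusted p = 0.020) was not called without E2F1 siRNA replicate 2 (log2 0.24), E2F1 siRNA replicate 3 (log2 0.20) or E2F3 siRNA replicate 3 (log2 0.18). MT-ATP6 (log2 0.11; limma adjusted p = 0.037), whose groups overlapped, was not called when any 1 control library (log2 0.11) was left out, nor without E2F1 siRNA replicate 2 (log2 0.09) or 3 (log2 0.10), or E2F3 siRNA replicate 2 (log2 0.10) or 3 (log2 0.10). MT-ND2 was lower after E2F3 siRNA than after E2F1 siRNA (log2 -0.14, SE 0.04; limma adjusted p = 0.0096), though not with upper-quartile scaling (log2 -0.09; limma adjusted p = 0.083). MT-CYB was lower too (log2 -0.11, SE 0.04; limma adjusted p = 0.033), but not without control replicate 3 (log2 -0.11), E2F1 siRNA replicate 1 or 2 (log2 -0.10 each) or E2F3 siRNA replicate 1 (log2 -0.08) or 2 (log2 -0.11), nor with the replicate number as a block (limma adjusted p = 0.055). MT-RNR1 missed the threshold (log2 0.28; limma adjusted p = 0.058) and passed it without E2F1 siRNA replicate 1 (log2 0.41; limma adjusted p = 0.0025).

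The 10 rises in the direct comparison mostly held when whole libraries were scaled. With RLE scaling 9 of them were called, with upper-quartile scaling 10, and on FPKM outside the mitochondrial genome 10. Most were lost on the mitochondrial mRNAs themselves, a scaling that takes out a change those mRNAs share. Scaled to the sum of the 13 mitochondrial mRNAs, of which MT-ATP8 is over 35.4% in each library, the median log2 difference of all genes became -0.19 between the knockdowns and 0.17 for E2F1 siRNA against controls. On this scaling MT-RNR2 and MT-CO2 were called higher after E2F3 siRNA than after E2F1 siRNA and the remaining 8 rises were not, against 10.3% of all genes called higher. Scaled to the geometric mean of the same mRNAs, MT-CO3 and MT-ND5 were called higher as well, against 12.6% of all genes. On each of these scalings 4 mitochondrial genes were called lower, against 40.1% of all genes on the sum and 35.7% on the geometric mean. Among them were MT-ND1, at -0.22 on the sum and -0.17 on the geometric mean, and MT-ND3, at -0.19 and -0.14. Both were close to the median of all genes on each. MT-ND2 (log2 -0.37 on the sum) and MT-CYB (log2 -0.34 on the sum) were further below it, and were called lower without these scalings too.

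The share of sequenced fragments that came from mitochondrial RNA was lowest after E2F1 siRNA. It was taken over the 12 genes of at least 500 bases, with the median length offset of 260 bases used for every library. The share was 4.23, 4.04 and 3.96% after E2F1 siRNA, 4.69, 4.80 and 4.82% after E2F3 siRNA, and 4.73, 4.76 and 4.74% in controls. Shares with each library's own offset, 235 to 270 bases, were not computed. The E2F1 siRNA libraries lay below all others, and the E2F3 siRNA libraries lay on either side of the controls. In summed FPKM the 37 genes made up 14.0 to 15.3% after E2F1 siRNA, 16.4 to 17.1% after E2F3 siRNA and 15.6 to 16.5% in controls, of which the short MT-ATP8 alone gave 35.4 to 40.0%. These shares describe the libraries and carry no test.

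rRNA was a small part of the mitochondrial signal in every library, and smallest after E2F1 siRNA. The ratio of summed rRNA to summed mRNA FPKM was 0.0162, 0.0155 and 0.0156 after E2F1 siRNA, 0.0200, 0.0186 and 0.0176 after E2F3 siRNA, and 0.0195, 0.0188 and 0.0197 in controls. The E2F1 siRNA libraries did not overlap with either other group, and E2F3 siRNA libraries spanned the controls. The ratio of MT-RNR2 to MT-ND1, the next mRNA on the same strand, was 0.754, 0.692 and 0.693 after E2F1 siRNA, 1.09, 1.04 and 1.01 after E2F3 siRNA, and 1.18, 1.14 and 1.07 in controls. The sources used here do not give whether poly(A) selection or removal of rRNA was used, and its part in the low rRNA values was not tested.

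Between the strands, the ratio of MT-ND6 to the mean FPKM of the heavy-strand mRNAs was 0.0985, 0.105 and 0.0853 after E2F1 siRNA, 0.112, 0.101 and 0.109 after E2F3 siRNA, and 0.0962, 0.111 and 0.0977 in controls. All 3 ranges overlapped, and E2F1 siRNA replicate 3 was the lowest library. Against the geometric mean of the heavy-strand mRNAs, to which the short MT-ATP8 adds less, the ratio was 0.158, 0.1641 and 0.133 after E2F1 siRNA, 0.183, 0.1641 and 0.184 after E2F3 siRNA, and 0.156, 0.184 and 0.158 in controls. On this measure the knockdowns met without overlap, and both overlapped with controls. The light-strand tRNAs gave no value, so MT-ND6 alone stands for that strand.

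**Figure D4:**
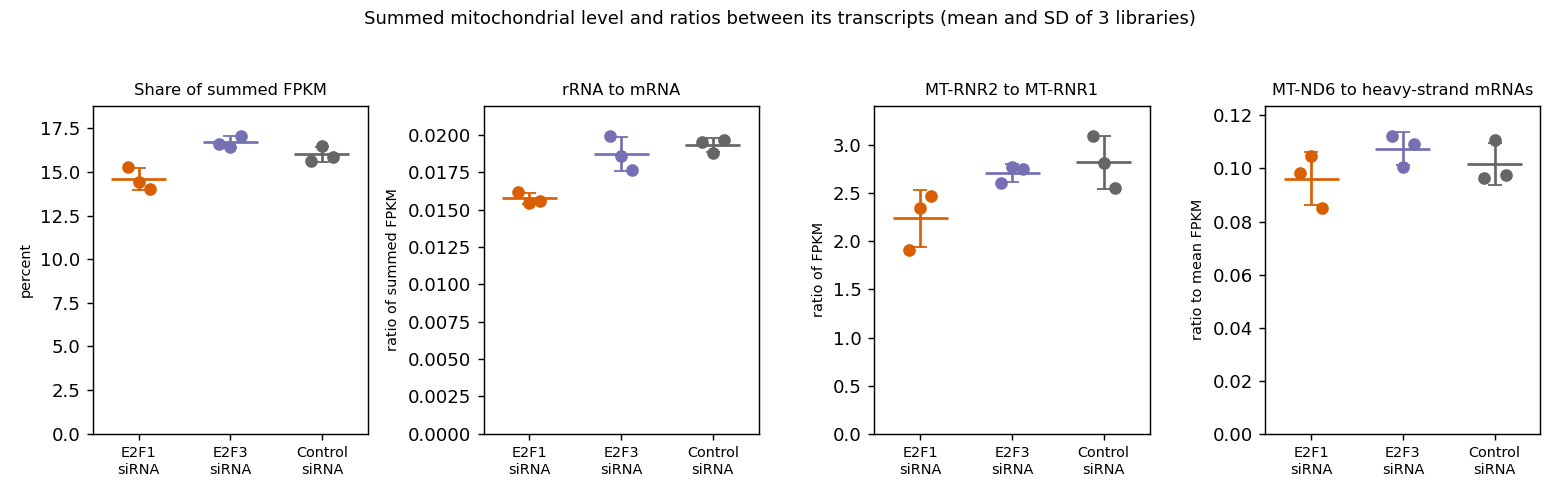
Mitochondrial share of summed FPKM in percent and 3 ratios between mitochondrial transcripts (vertical, from 0) in each library of E2F1 siRNA, E2F3 siRNA and control siRNA (horizontal), with the mean and SD of 3. The rRNA to mRNA ratio is 0.0155 to 0.0162 after E2F1 siRNA, below all other libraries.

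Copies of mitochondrial sequence in nuclear chromosomes could take reads from these genes or give reads to them. Of 407 such copies recognised by symbol, 331 were at 0 in all 9 libraries and 5 were tested. MTATP6P1 (chr1:633696-634376) had 916 FPKM on average and differs from MT-ATP6 at 10 of 681 aligned bases, or 98.5% identity. Its level was 11.01 to 13.08% of that of MT-ATP6 in each library, and it was 860 ± 4.94 FPKM after E2F1 siRNA, 938 ± 73.8 after E2F3 siRNA and 952 ± 54.7 in controls (SD, n = 3 each). MTCO1P12 averaged 14.2 FPKM, MTND6P3 10.8, MTRNR2L1 7.55 and MTND2P28 1.84. None of these 5 copies was called in any comparison. After E2F1 siRNA, MTCO1P12 (log2 -0.26; limma adjusted p = 0.0502) and MTATP6P1 (log2 -0.15; limma adjusted p = 0.074) lay below all controls, and the other copies overlapped with them. Both were called in some alternatives, such as with only the 6 libraries compared (limma adjusted p = 0.025 and 0.032). The sources used here do not give how reads shared with the mitochondrial genes were assigned.

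Among the nuclear genes that express and process mitochondrial RNA, TFAM had the largest fall after E2F3 siRNA. TFAM, which packages mitochondrial DNA and is needed to start its transcription, had 17.4, 18.4 and 20.5 FPKM after E2F3 siRNA, against 92.0, 93.4 and 83.3 FPKM in controls. The mean fell by 79.1% (log2 -2.20, SE 0.06; limma adjusted p = 2.2e-08), in all 3 libraries and in every alternative setting. After E2F1 siRNA it had 96.3, 93.8 and 96.6 FPKM and did not pass the test (log2 0.09; limma adjusted p = 0.28). The 13 mitochondrial mRNAs summed to 133277, 135173 and 142428 FPKM after E2F3 siRNA, against 127496, 135461 and 129032 FPKM in controls, within or above the control range, with over 35.4% of each sum from MT-ATP8. By share of fragments over the 12 longer genes, E2F3 siRNA replicate 1 was at 4.69%, below the controls at 4.73 to 4.76%. E2F3 siRNA replicates 2 and 3, at 4.80 and 4.82%, were above them. These shares used 260 bases as the length offset for every library. The offsets read from these 3 E2F3 siRNA libraries were 270, 245 and 235 bases, so differences this small may depend on the scaling, which was not tested. Of 43 such genes, 11 were higher and 3 lower after E2F1 siRNA, or 32.6% against 37.8% of all genes, with a median log2 of 0.07. After E2F3 siRNA 4 were higher and 7 lower, or 25.6% against 37.6%, with a median of -0.02. Between the knockdowns 3 were higher and 13 lower after E2F3 siRNA, or 37.2% against 45.5%, with a median of -0.09. None of these shares exceeded that of all genes.

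**Figure D5:**
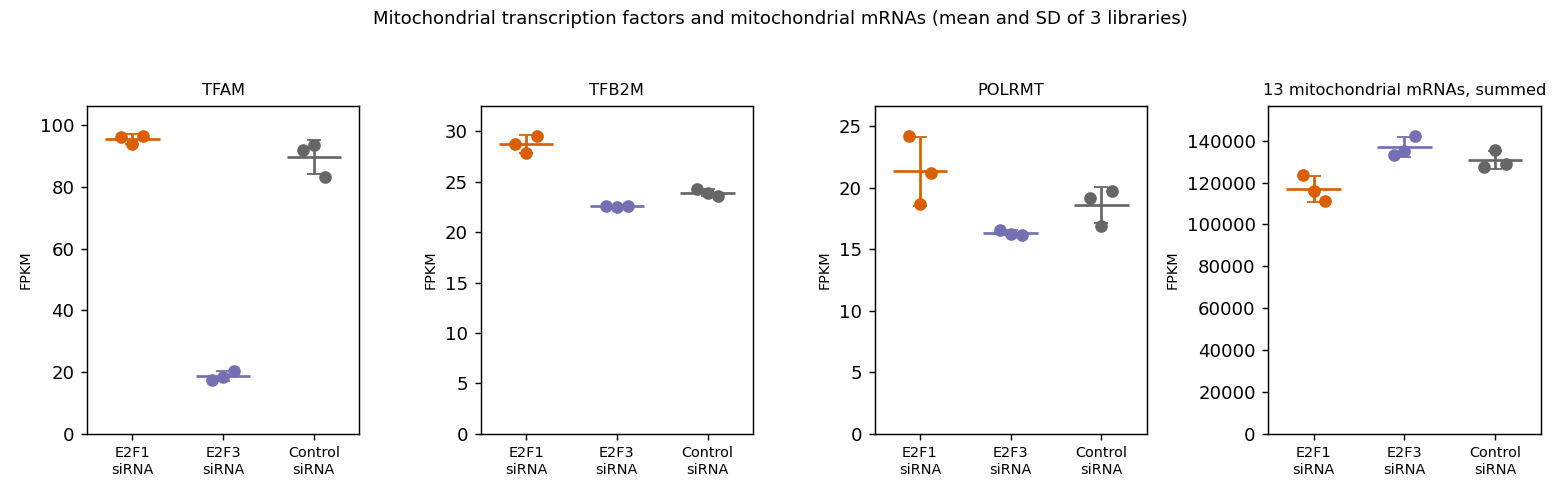
FPKM of TFAM, TFB2M, POLRMT and the summed 13 mitochondrial mRNAs (vertical, from 0) in each library of E2F1 siRNA, E2F3 siRNA and control siRNA (horizontal), with the mean and SD of 3. TFAM lies at 17.4 to 20.5 FPKM after E2F3 siRNA, against 83.3 to 93.4 in controls. The summed mRNAs lie at 133277 to 142428 FPKM after E2F3 siRNA and overlap with the controls at 127496 to 135461.

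Among the other factors with the largest changes were proteins that act on mitochondrial DNA and on rRNA. TOP1MT, the mitochondrial topoisomerase, had 47.89 ± 1.502 FPKM after E2F1 siRNA and 43.9 ± 2.85 after E2F3 siRNA, against 28.6 ± 0.880 in controls (log2 0.72 and 0.60; limma adjusted p = 7.8e-06 and 3.1e-05; SD, n = 3 each). NSUN4, a methyltransferase that acts on the small rRNA and in ribosome assembly, was at 8.75 ± 0.543 FPKM after E2F1 siRNA, against 12.8 ± 1.06 in controls (log2 -0.49; limma adjusted p = 0.0020). MRM1, which methylates the large rRNA, was at 7.52 ± 0.365 FPKM after E2F1 siRNA and 1.87 ± 0.0945 after E2F3 siRNA, against 4.35 ± 0.745 in controls (log2 0.68 and -0.89; limma adjusted p = 7.3e-04 and 1.5e-04). These 3 genes kept their calls in every alternative. TRNT1, which adds the CCA end to tRNAs, was lower after E2F1 siRNA (log2 -0.45; limma adjusted p = 0.0011), and FASTKD1, a mitochondrial RNA-binding protein, was higher after E2F3 siRNA (log2 0.36; limma adjusted p = 0.0033). Between the knockdowns TFAM (log2 -2.29; limma adjusted p = 1.5e-08) and MRM1 (log2 -1.57) were lower after E2F3 siRNA than after E2F1 siRNA, and NSUN4 (log2 0.68) and TRNT1 (log2 0.51) were higher.

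A few further factors are given because of their role and were picked with their values known. TFB2M, which opens the promoter for the polymerase, had 28.7 ± 0.876 FPKM after E2F1 siRNA, 22.6 ± 0.0608 after E2F3 siRNA and 23.9 ± 0.310 in controls. It rose after E2F1 siRNA (log2 0.25; limma adjusted p = 0.0016) and did not pass the test after E2F3 siRNA (log2 -0.08; limma adjusted p = 0.18). POLRMT had 21.3 ± 2.80 FPKM after E2F1 siRNA, 16.3 ± 0.212 after E2F3 siRNA and 18.6 ± 1.49 in controls, and passed the test against controls in neither (log2 0.19 and -0.17; limma adjusted p = 0.14 and 0.16). GRSF1, an RNA-binding protein of mitochondrial RNA granules, fell after E2F3 siRNA to 36.9 ± 2.79 FPKM, against 54.9 ± 2.10 in controls (log2 -0.56; limma adjusted p = 9.1e-05). LRPPRC, which stabilises mitochondrial mRNAs, was higher after E2F3 siRNA (log2 0.20; limma adjusted p = 0.027). It did not pass the test after E2F1 siRNA (log2 0.14; limma adjusted p = 0.10) or between the knockdowns (log2 0.06; limma adjusted p = 0.43).

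Nuclear genes for subunits of the respiratory chain and ATP synthase, the partners of the mitochondrial mRNAs, moved in both directions, and in no comparison was a larger share of them called than of all genes. The difference between these shares was not tested. Of 77, 13 were higher and 12 lower after E2F1 siRNA, or 32.5% against 37.8% of all genes. After E2F3 siRNA 17 were higher and 10 lower, or 35.1% against 37.6%, and between the knockdowns 12 were higher and 12 lower, or 31.2% against 45.5%. UQCR11, a small complex III subunit, had 20.3 ± 2.18 FPKM after E2F1 siRNA and 95.3 ± 10.6 after E2F3 siRNA, against 92.4 ± 3.61 in controls (log2 -2.13 after E2F1 siRNA; limma adjusted p = 2.3e-07). The complex IV subunit COX7B was lower after E2F1 siRNA (log2 -0.29; limma adjusted p = 7.1e-04), but not when scaled to the sum of the mitochondrial mRNAs (log2 -0.13), though it was on their geometric mean. NDUFB6, a complex I subunit, was higher (log2 0.38; limma adjusted p = 0.033), a call lost when any 1 control library (log2 0.38), E2F1 siRNA replicate 2 (log2 0.30) or E2F1 siRNA replicate 3 (log2 0.38) was left out. After E2F3 siRNA NDUFA8, of complex I, was higher (log2 0.41; limma adjusted p = 1.0e-04), and ATP5F1D, of ATP synthase (log2 -0.54; limma adjusted p = 0.010), and UQCRC1, of complex III (log2 -0.43; limma adjusted p = 5.7e-04), were lower. Between the knockdowns CYC1, the complex III cytochrome, was lower after E2F3 siRNA than after E2F1 siRNA (log2 -0.56; limma adjusted p = 2.1e-05), and NDUFA6, of complex I, was higher (log2 0.75; limma adjusted p = 0.032), though not without E2F1 siRNA replicate 1 (log2 0.57) or 3 (log2 0.73) or E2F3 siRNA replicate 3 (log2 0.55).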

How the data were processed

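RNA from 9 HK1 libraries was sequenced, 3 per group. The labels' protocols give RNA extraction by mirVana kit and Illumina's standard library preparation. The submitters' processing notes name Trimmomatic, TopHat, HISAT2, HTSeq, DESeq and genome build GRCh38, without version or role. The authors deposited FPKM per gene with 2 decimals, per the file headers. Of 59107 entries with a value, 58381 were Ensembl identifiers, 58261 of them named in GENCODE release 29, and 12 text entries were left out.

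The log2(FPKM + 1) values of genes reaching 1 FPKM in 3 or more libraries were tested. All libraries entered 1 limma model (version 3.58.1 in R 4.3.3, with a mean-variance trend) with a mean per group. The comparisons were contrasts of it, tested in both directions, and p-values were adjusted by Benjamini-Hochberg over 13777 genes with a threshold of 0.05. Depth and the length offset were read from values below 0.3 FPKM of 2642 single-exon genes of 900 to 1500 bases, of which 93.5 to 96.4% per library lay within 0.25 of a whole step. No pair of libraries shared more than 0.444% of their values. Sequences and positions are from GENCODE 29 on GRCh38 chromosome M. Simulated data were used to test the fit. All 37 genes are accounted for. From each of 2 lists of nuclear genes, up to 2 rises and 2 falls per comparison are named, by size among called genes; not every such gene is reported here. Alternatives covered scaling, pseudocount, filter, threshold, the samples fitted, the replicate block and leaving out each library. Members, lists and alternatives were chosen with earlier results of these data known.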

Additional observations from a re-analysis of the deposited data

How the results depend on the processing

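Of 900 alternative values of the 15 mitochondrial genes, 741 kept both direction and side of the threshold, 121 lost the call, 6 gained one and 32 changed sign. The cause of each change was not tested. In several alternatives the log2 fold change was the same by design, so only the call could change. These were the other filters, the replicate block, only the 6 libraries compared, leaving out a library outside the comparison, and the threshold of 0.01. After E2F1 siRNA against controls, the 4 genes called higher became 1 with RLE and with upper-quartile scaling and 0 without a filter on low values or at a threshold of 0.01, and 0 to 4 when 1 library was left out. Of all genes 20.5% were called higher in the main setting, 18.4% with RLE and 17.8% with upper-quartile scaling. Without a filter 30309 genes were tested, and 7.58% were called higher. Shares of all genes at 0.01 were not computed. The 7 called lower became 4 when scaled to the 13 mitochondrial mRNAs or without a filter, and 6 to 8 when 1 library was left out. Of all genes 17.3% were called lower in the main setting, 9.59% on the sum of the mRNAs and 6.59% without a filter. After E2F3 siRNA against controls, the 4 called higher became 1 with RLE scaling, with scaling to the geometric mean of the 13 mRNAs and at 0.01, 0 when scaled to the sum of the mRNAs or without a filter, and 2 to 4 when 1 library was left out. Of all genes 21.1% were called higher in the main setting and 17.6% with RLE scaling. The share was 13.8% on the geometric mean, 12.3% on the sum and 8.21% without a filter. The 1 called lower became 2 with RLE and geometric-mean scaling, 0 with upper-quartile scaling, without a filter and at 0.01, and 0 to 1 when 1 library was left out. Of all genes 16.4% were called lower in the main setting, 19.2% with RLE and 18.6% with geometric-mean scaling. The share was 15.6% with upper-quartile scaling and 6.23% without a filter. Between the knockdowns, the 10 called higher became 2 on the sum of the mRNAs, 4 on their geometric mean and 5 without a filter, and 8 to 11 when 1 library was left out. Of all genes 23.5% were called higher in the main setting, 10.3% on the sum, 12.6% on the geometric mean and 9.8% without a filter. The 2 called lower became 0 with upper-quartile scaling and without a filter, 4 on the sum and on the geometric mean of the mRNAs, 1 with only the 6 libraries compared and at 0.01, and 1 to 2 when 1 library was left out. Of all genes 22% were called lower in the main setting, 18.5% with upper-quartile scaling and 8.61% without a filter. The share was 40.1% on the sum, 35.7% on the geometric mean and 20.6% with only the 6 libraries compared.

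Samples with the same replicate number correlated in their deviations from the group means between -0.11 and 0.11 over 9 pairs, with 1 over 0.1, and samples with different numbers between -0.08 and 0.07 over 18 pairs, so the numbers were not taken to pair the samples. With a replicate block, 3 mitochondrial genes were higher and 7 lower after E2F1 siRNA against controls, 4 higher and 0 lower after E2F3 siRNA against controls, and 9 higher and 1 lower after E2F3 siRNA against E2F1 siRNA. With that block, 19.4% of all genes were higher and 16.4% lower in the first comparison. In the second 19.8% were higher and 15.5% lower, and in the third 22.4% and 21%.

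The mitochondrial share of summed FPKM had a log2 ratio of -0.13 after E2F1 siRNA against controls (-0.17 to -0.11 without 1 library), -0.20 with FPKM times gene length and -0.22 as a share of fragments. After E2F3 siRNA it was 0.06 (0.04 to 0.08 without 1 library) and 0.0073 as a share of fragments. The share of fragments, the scaling to the geometric mean of the mRNAs and the shares without MT-ATP8 were chosen after seeing the data. The planned ratio of tRNA to mRNA was not run, because all tRNAs were listed at 0.

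Values that changed sign were mostly small on the log2 scale. Scaling to the sum of the 13 mRNAs gave 0.039 for MT-ATP8, 0.12 for MT-ATP6, 0.0051 for MT-ND5, 0.016 for MTATP6P1 and 0.013 for MTND6P3 after E2F1 siRNA against controls. After E2F3 siRNA against controls it gave -0.0084 for MT-RNR1, -0.061 for MT-RNR2, -0.0014 for MT-ATP6, -0.061 for MT-CYB, -0.021 for MTND6P3 and -0.029 for MTRNR2L1. Between the knockdowns it gave -0.22 for MT-ND1, -0.032 for MT-CO1, -0.12 for MT-ATP6, -0.19 for MT-ND3, -0.11 for MTATP6P1, -0.089 for MTCO1P12, -0.034 for MTND6P3 and -0.064 for MTND2P28. Scaling to their geometric mean gave 0.075 for MT-ATP6 after E2F1 siRNA against controls. After E2F3 siRNA against controls it gave -0.0032 for MT-RNR1, -0.056 for MT-RNR2, -0.055 for MT-CYB, -0.016 for MTND6P3 and -0.024 for MTRNR2L1. Between the knockdowns it gave -0.17 for MT-ND1, -0.071 for MT-ATP6, -0.14 for MT-ND3, -0.056 for MTATP6P1, -0.042 for MTCO1P12 and -0.032 for MTND2P28. RLE scaling gave -0.0073 for MTND2P28 after E2F1 siRNA against controls. After E2F3 siRNA against controls it gave -0.036 for MT-RNR2, -0.035 for MT-CYB and -0.0056 for MTRNR2L1. Between the knockdowns it gave -0.011 for MT-ND1. Upper-quartile scaling gave -0.011 for MTND2P28 after E2F1 siRNA against controls. After E2F3 siRNA against controls it gave 0.0011 for MT-ND2.

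When 1 library was left out, values that changed sign ran from -0.29 to 0.26 for MTND2P28 after E2F1 siRNA against controls. The ranges after E2F3 siRNA against controls were -0.0025 to 0.11 for MT-RNR1, -0.013 to 0.017 for MT-RNR2, -0.045 to 0.00067 for MT-ND2, -0.018 to 0.031 for MT-CYB, -0.084 to 0.027 for MTATP6P1, -0.050 to 0.19 for MTND6P3, -0.050 to 0.10 for MTRNR2L1 and -0.20 to 0.34 for MTND2P28. Between the knockdowns the ranges were -0.012 to 0.022 for MT-ND1, -0.027 to 0.069 for MT-ND3 and -0.048 to 0.21 for MTND2P28.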
